A study of Homo sapiens with 8 samples.

Results

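Transcript levels of 7 genes for secreted stress factors were followed across 4 groups of arrays: GDF15, STC2, STC1, ANGPTL4, VEGFA, ADM and FGF21. The genes were chosen by symbol, and each was read by the only probe set (a set of array probes summarised to 1 value) that the platform annotation pairs with that gene alone, so no choice by level was needed among several. All 7 were measured, out of 18417 genes with such a probe set. The cells were HCC1937, an established human breast cancer line that carries a truncated BRCA1 and is labelled BRCA1 deficient, and HCC1937+BRCA1, labelled as carrying wild-type BRCA1. Each line was measured without drug (labelled control) and after 24 h with 10 µM COH29, which blocks ribonucleotide reductase and so the supply of deoxynucleotides for DNA synthesis. Each of the 4 groups held 2 arrays. All groups were cultured alike, in RPMI with serum. The labels name neither a vehicle nor hours for the controls, and what either could add to a COH29 effect cannot be told apart from it. The sources used here give neither the way BRCA1 was added nor whether the resulting line is 1 clone.

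All of the genes encode proteins or peptides that leave the cell. GDF15 is a distant relative of the TGF-beta family that signals to the brainstem through the receptor GFRAL and lowers appetite. STC2 and STC1 encode the stanniocalcins, glycoprotein hormones linked to calcium and phosphate handling and to cell survival under stress. ANGPTL4 encodes an inhibitor of lipoprotein lipase, VEGFA the main growth factor of blood vessels, and ADM the vasodilating peptide adrenomedullin. FGF21 encodes a fasting hormone that needs the co-receptor beta-Klotho (KLB). The transcription factors ATF4 and DDIT3 (CHOP) are known to drive GDF15, STC2 and FGF21 when protein folding or amino acid supply fails, and the hypoxia-inducible factors are known to drive VEGFA, ADM and ANGPTL4. In bulk RNA, a change in the share of expressing cells and a change in RNA per cell cannot be told apart.

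The arrays were of like quality by the measures at hand. Within each group, the pair of arrays had a correlation of 0.996 or 0.997 over all genes. Of 8 measured epithelial markers, 7 lay above the median gene on every array. The mean of the 8 ran from 10.91 to 11.15 (log2 intensity), but single markers differed between the untreated lines in both directions. KRT5 read 10.98 in HCC1937 control and 9.28 in HCC1937+BRCA1 control, KRT19 8.57 and 7.75, and EGFR 10.33 and 10.84. All 6 adipocyte and hepatocyte markers, genes of the usual tissue sources of ANGPTL4 and FGF21, lay below the median gene on every array, with an array mean between 5.76 and 5.99. The fibroblast marker mean ran from 5.71 to 5.97. The means of the endothelial and leukocyte lists shifted between groups. The mean of 5 endothelial markers was 7.24 in HCC1937 control, 6.67 in HCC1937 COH29, 6.70 in HCC1937+BRCA1 control and 6.38 in HCC1937+BRCA1 COH29. PECAM1 (9.30, 7.35, 8.11 and 6.63 in that order, up to percentile 71.8 of all genes) and CDH5 (8.75, 7.48, 7.41 and 6.91) carried the shift and read lower with COH29 in both lines, while the means of VWF and TEK lay between 5.08 and 5.98. The mean of 4 leukocyte markers was 6.87, 6.58, 5.59 and 5.64 in the same order, moved mostly by CD14, while PTPRC read 3.99 to 4.21 in the group means. The part of these shifts in the results below was not tested. BRCA1 itself read 10.55 ± 0.13 (log2, mean ± SD of 2 arrays) in the HCC1937 controls and 10.46 ± 0.05 in the HCC1937+BRCA1 controls, a difference of -0.08 ± 0.10 (SE, limma adjusted p = 0.62). Its level gives no check of the line labels.

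Promoter sequence is shown first for 5 of the 7 genes. These 5 were not picked by their response, since all 7 rose with COH29 in both lines. The sequences came from a RefSeq promoter table (assembly GRCh38.p14). STC1 and VEGFA were left out of the promoter search, so the counts out of 5 below do not cover them. Each line gives the 250 bases before the annotated start, 5′ to 3′ on the gene's strand. Capitals mark the letters searched for on both strands: TGATGNAA (the element bound by C/EBP-ATF dimers such as CHOP with ATF4), ACGTG and GCGTG (the core of the hypoxia response element), TGANTCA (AP-1) and TATAAA (the TATA box). A core match can lie within a longer element of another factor, such as an E-box, and a match describes letters, not binding.
FGF21 (chr19:48755274-48755523, plus strand): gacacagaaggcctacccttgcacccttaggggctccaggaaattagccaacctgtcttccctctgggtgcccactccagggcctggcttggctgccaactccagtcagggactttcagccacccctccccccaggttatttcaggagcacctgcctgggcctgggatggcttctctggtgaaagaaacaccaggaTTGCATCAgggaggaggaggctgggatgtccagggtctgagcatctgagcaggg
STC2 (chr5:173328415-173328664, minus strand): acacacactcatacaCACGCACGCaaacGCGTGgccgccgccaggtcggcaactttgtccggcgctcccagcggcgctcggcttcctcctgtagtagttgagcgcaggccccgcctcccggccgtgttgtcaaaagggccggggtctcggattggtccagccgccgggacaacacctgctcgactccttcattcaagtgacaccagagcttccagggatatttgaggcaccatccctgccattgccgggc
ANGPTL4 (chr19:8363905-8364154, plus strand): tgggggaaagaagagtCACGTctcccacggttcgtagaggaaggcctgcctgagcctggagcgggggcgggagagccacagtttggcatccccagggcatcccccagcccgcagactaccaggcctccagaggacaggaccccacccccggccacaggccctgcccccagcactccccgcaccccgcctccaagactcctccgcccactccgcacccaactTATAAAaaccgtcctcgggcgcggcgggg
ADM (chr11:10304823-10305072, plus strand): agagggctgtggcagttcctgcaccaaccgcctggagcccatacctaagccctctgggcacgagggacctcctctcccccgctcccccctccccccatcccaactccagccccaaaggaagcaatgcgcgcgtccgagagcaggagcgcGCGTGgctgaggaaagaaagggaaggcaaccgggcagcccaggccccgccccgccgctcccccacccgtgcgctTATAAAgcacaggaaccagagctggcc
GDF15 (chr19:18385908-18386157, plus strand): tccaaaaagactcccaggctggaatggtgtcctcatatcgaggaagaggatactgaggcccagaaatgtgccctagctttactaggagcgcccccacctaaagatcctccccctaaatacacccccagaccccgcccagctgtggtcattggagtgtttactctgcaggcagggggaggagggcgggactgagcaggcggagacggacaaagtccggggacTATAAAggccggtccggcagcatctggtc

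The FGF21 window held the reverse strand form of the C/EBP-ATF element, TTGCATCA, at 54 to 47 bases before the start. None of the other 4 windows held it, and 3.14% of the 35116 windows of the same length in the table did. The hypoxia core occurred in the windows of STC2 (3 matches, 2 of them adjoining and sharing a base), ANGPTL4 (1) and ADM (1), and in 43.2% of all windows, so 3 of 5 is close to the share in the table. AP-1 letters were in 0 of the 5 windows and in 6.57% of all. TATAAA stood on the gene's strand 29 to 24 bases before the start in GDF15 and in ANGPTL4, and 27 to 22 bases before it in ADM. In the stretch from 40 to 21 bases before the start, 2.25% of all promoters held TATAAA on that strand. The TATA search was added after these sequences had been read, so its count is a description. GDF15 held none of the stress elements searched for in this window.

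COH29 raised the level of each of the 7 genes in both lines, from 1.25-fold for FGF21 in HCC1937 to 11.3-fold for STC2 in HCC1937+BRCA1. The median log2 change was 1.29 in HCC1937 and 2.23 in HCC1937+BRCA1, against 0.04 over all genes in each line. By limma with Benjamini-Hochberg adjustment over all genes (called at an adjusted p under 0.05), 7 of 7 were called higher in each line, and 0 were lower, also at an unadjusted p under 0.05. Of all genes tested, 22.7% were called in HCC1937 (10.2% higher and 12.5% lower) and 33.6% in HCC1937+BRCA1 (13.6% higher and 20.1% lower). With arrays shifted to one median, 26.9% of the calls in HCC1937+BRCA1 were higher, against 40.3% as deposited, and the 7 genes kept their direction. Treated and control arrays did not overlap in any of the 7 genes in either line, which was also so for 62.4% of all genes in HCC1937 and 68.4% in HCC1937+BRCA1. The genes were brought together with such results known, so the count describes them and supports nothing further. In HCC1937+BRCA1 the rise was larger than in HCC1937 for STC2, ANGPTL4 and ADM by the test of the difference, while GDF15 rose by a like amount in both lines. Separate cultures are not named for the 2 arrays of any group, so a p-value here speaks only of array-to-array spread, part or all of which may be technical.

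**Figure D1:**
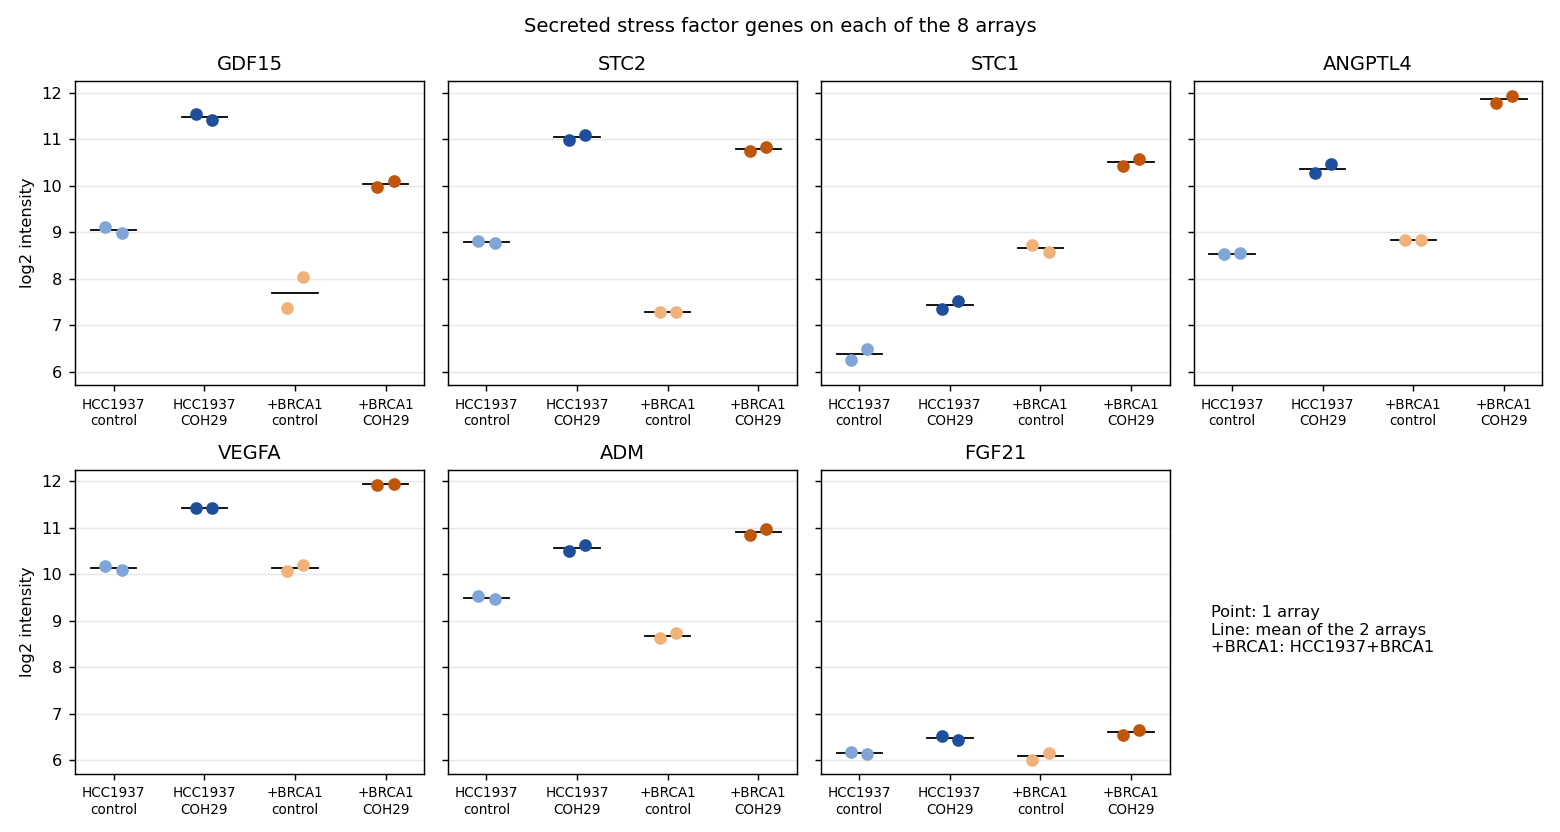
Log2 intensity (vertical axis) of each gene on each of the 8 arrays, by line and treatment (horizontal axis), where a point is 1 array and a black line the mean of the 2 arrays of a group. The COH29 arrays lie above the control arrays of the same line in every panel, with the smallest step in FGF21, beside 62.4% (HCC1937) and 68.4% (HCC1937+BRCA1) of all genes whose treated and control arrays do not overlap in either direction; heights are not comparable between genes, since probe sets respond differently.

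GDF15, the appetite-lowering stress cytokine, was measured at 9.11 and 8.98 (log2 intensity) on the HCC1937 control arrays and at 11.53 and 11.41 on the COH29 arrays. In HCC1937+BRCA1 the control arrays read 7.36 and 8.03 and the COH29 arrays 9.96 and 10.09. Treated and control arrays did not overlap in either line, and the 2 HCC1937+BRCA1 controls were the pair that lay farthest apart (SD 0.47, against 0.08 to 0.10 in the other groups). The rise was 5.37-fold (95% interval 4.03 to 7.16, adjusted p = 6.59e-05) in HCC1937 and 5.01-fold (3.76 to 6.68, adjusted p = 3.05e-05) in HCC1937+BRCA1. On the log2 scale these are 2.43 ± 0.18 and 2.33 ± 0.18 (SE), and their difference was -0.10 ± 0.26 (95% interval -0.68 to 0.49, adjusted p = 0.926). That interval does not show the rises to be equal. Without HCC1937+BRCA1 control replicate 2 the difference was 0.23 and without replicate 1 it was -0.43, with no call either way.

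STC2, a stanniocalcin known as a target of ATF4, read 8.81 and 8.76 on the HCC1937 control arrays and 10.99 and 11.09 with COH29. In HCC1937+BRCA1 it read 7.28 and 7.28 without and 10.75 and 10.82 with the drug. The order of the groups was HCC1937+BRCA1 control, HCC1937 control, HCC1937+BRCA1 COH29 and HCC1937 COH29, with no overlap between neighbours. Its rise was 4.77-fold (4.19 to 5.42, adjusted p = 2.6e-06) in HCC1937 and 11.3-fold (9.95 to 12.9, adjusted p = 1.12e-07) in HCC1937+BRCA1. The rise in the second line was the larger by 1.25 ± 0.12 on the log2 scale (adjusted p = 0.00401). Without drug STC2 stood at -1.50 in HCC1937+BRCA1 relative to HCC1937 on the log2 scale, and with drug at -0.25.

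STC1, the other stanniocalcin, had the reverse order of lines. It read 6.26 and 6.48 in HCC1937 control, 7.35 and 7.51 in HCC1937 COH29, 8.73 and 8.58 in HCC1937+BRCA1 control, and 10.43 and 10.58 in HCC1937+BRCA1 COH29. Both HCC1937+BRCA1 control arrays were above both treated HCC1937 arrays. COH29 raised STC1 2.07-fold (1.74 to 2.47, adjusted p = 0.000279) in HCC1937 and 3.61-fold (3.03 to 4.30, adjusted p = 9.36e-06) in HCC1937+BRCA1. The difference of the rises, 0.80 ± 0.16 on the log2 scale, missed the threshold (adjusted p = 0.0591, with 0.00931 to 0.244 over the alternatives). Over the 8 arrays STC1 ran through 4.31 log2 units, from 6.26 to 10.58.

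ANGPTL4, which encodes the lipoprotein lipase inhibitor, read 8.53 and 8.55 in HCC1937 control and 10.26 and 10.47 in HCC1937 COH29. In HCC1937+BRCA1 it read 8.84 and 8.83 without and 11.78 and 11.93 with COH29. The control arrays of both lines lay close together, and the treated HCC1937+BRCA1 arrays were the highest. The rise was 3.55-fold (3.05 to 4.14, adjusted p = 1.7e-05) in HCC1937 and 8.14-fold (6.98 to 9.49, adjusted p = 6.97e-07) in HCC1937+BRCA1. Their difference was 1.20 ± 0.14 on the log2 scale (adjusted p = 0.00785).

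VEGFA, the vessel growth factor gene, read 10.17 and 10.09 in HCC1937 control and 10.08 and 10.19 in HCC1937+BRCA1 control, so the untreated lines overlapped. With COH29 it read 11.43 and 11.42 in HCC1937 and 11.91 and 11.95 in HCC1937+BRCA1. Of all genes, 60.6% had no overlap between the treated lines. The rise was 2.45-fold (2.15 to 2.79, adjusted p = 3.19e-05) and 3.47-fold (3.04 to 3.95, adjusted p = 2.91e-06). The treated groups did not overlap, but the test of the difference of rises did not pass (0.50 ± 0.12 on the log2 scale, 95% interval 0.23 to 0.77, adjusted p = 0.1, with 0.00646 to 0.305 over the alternatives).

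ADM, the adrenomedullin gene, read 9.54 and 9.46 in HCC1937 control and 10.49 and 10.63 with COH29. In HCC1937+BRCA1 it read 8.62 and 8.73 without and 10.84 and 10.97 with the drug. HCC1937+BRCA1 thus held both the lowest and the highest pair of arrays. The rise was 2.09-fold (1.80 to 2.42, adjusted p = 0.000133) in HCC1937 and 4.70-fold (4.06 to 5.45, adjusted p = 1.68e-06) in HCC1937+BRCA1, and the difference was 1.17 ± 0.13 on the log2 scale (adjusted p = 0.00785).

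FGF21, the fasting hormone gene, moved least. It read 6.18 and 6.14 in HCC1937 control, 6.52 and 6.44 in HCC1937 COH29, 6.01 and 6.16 in HCC1937+BRCA1 control, and 6.55 and 6.65 in HCC1937+BRCA1 COH29. Treated arrays lay above the control arrays in both lines, by little. Its intensity stood between percentiles 23 and 30.4 of all genes on each array, and no detection value was used, so whether it lies above background is not known. The rise was 1.25-fold (1.08 to 1.44, adjusted p = 0.0319) in HCC1937 and 1.42-fold (1.24 to 1.64, adjusted p = 0.00229) in HCC1937+BRCA1. The call in HCC1937 ended without any 1 of that line's 4 arrays (adjusted p = 0.139 and 0.057 without COH29 replicate 1 and 2, and 0.107 and 0.155 without control replicate 1 and 2), when arrays were set to one median (0.0731), after cyclic loess (0.0539), with trend and robust eBayes (0.0729) and without moderation (0.0614). In each of these settings the count of 7 called higher in HCC1937 became 6. The C/EBP-ATF letters printed above stand before this gene, and a link between such letters and the size of a change was not tested. The difference of its rises was 0.19 ± 0.13 (adjusted p = 0.596).

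**Figure D2:**
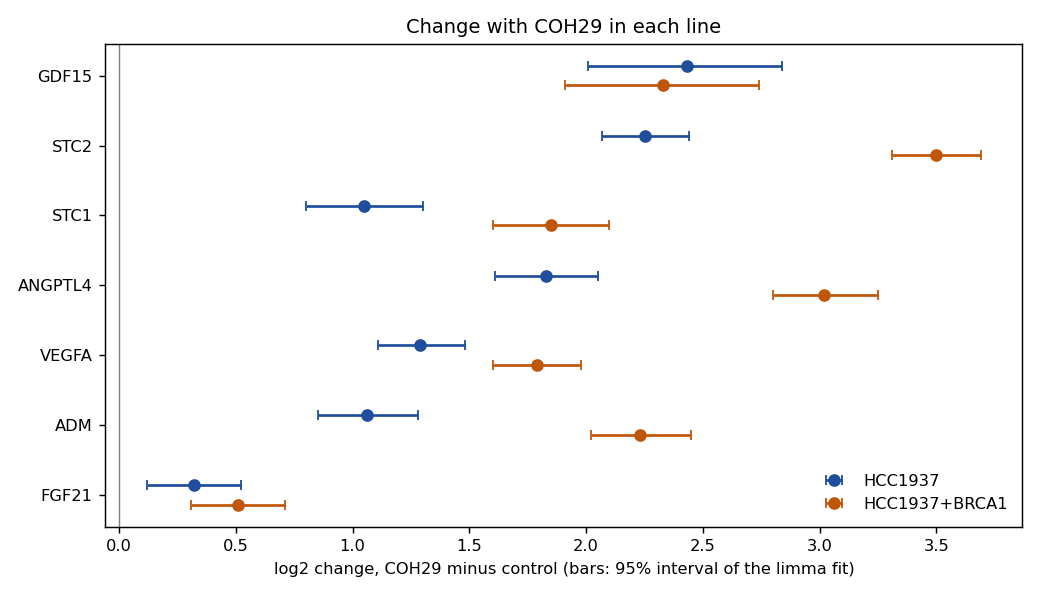
Change with COH29 (horizontal axis, log2, COH29 minus control) of each gene (vertical axis) in HCC1937 (blue) and HCC1937+BRCA1 (orange), with the 95% interval of the limma fit as bars. The intervals of the lines lie apart for STC2, STC1, ANGPTL4, VEGFA and ADM and overlap for GDF15 and FGF21; by the adjusted test of the difference STC2, ANGPTL4 and ADM passed.

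The larger rise in HCC1937+BRCA1 was tested across all genes as the difference of both effects. It passed higher for 3 of the 7 genes (STC2, ANGPTL4 and ADM) and lower for 0, also at an unadjusted p under 0.05, where 5 were higher. Of all genes 0.956% were called in that comparison, 0.543% higher and 0.413% lower. The difference and each line's effect share the same arrays, so they are not separate evidence. Without moderation of the variances 0 of the 7 passed, with adjusted p = 0.0878, 0.141 and 0.123 for STC2, ANGPTL4 and ADM, and in that setting 3 genes passed in the whole table.

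Without drug the lines already differed in most of these genes, and not in 1 direction. GDF15 was 2.55-fold lower in HCC1937+BRCA1 than in HCC1937 (1.91 to 3.39, adjusted p = 0.000511), STC2 2.83-fold lower (2.49 to 3.22, adjusted p = 2.29e-06) and ADM 1.77-fold lower (1.53 to 2.05, adjusted p = 0.000189). STC1 was 4.85-fold higher (4.08 to 5.78, adjusted p = 9.91e-07). ANGPTL4 was 1.22-fold higher at adjusted p = 0.049, a call that ended without any 1 array of either control group (adjusted p = 0.135 to 0.185), without either HCC1937+BRCA1 COH29 array (0.0512) and with the replicate block (0.0506). VEGFA differed by 0.01 ± 0.08 (95% interval -0.18 to 0.19 on the log2 scale) and FGF21 by -0.07 ± 0.09 (-0.27 to 0.13). In all, 2 were called higher and 3 lower, beside 16.4% and 14.8% of all genes (31.2% together), so such differences were common in the whole table. The arrays of the lines did not overlap in 5 of the 7 genes, nor in 63.6% of all genes, so that count is near the background.

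With COH29 on board the lines stood differently. STC1 was 8.45-fold higher in HCC1937+BRCA1 than in HCC1937 (7.10 to 10.1, adjusted p = 2e-07), ANGPTL4 2.81-fold higher (2.41 to 3.27, adjusted p = 8.1e-06) and VEGFA 1.42-fold higher (1.25 to 1.62, adjusted p = 0.00155). GDF15 was 2.73-fold lower (2.05 to 3.64, adjusted p = 0.000339), close to its gap without drug. ADM had changed sides and was 1.27-fold higher (1.10 to 1.48, adjusted p = 0.0198), a call that ended without HCC1937 COH29 replicate 1 (adjusted p = 0.106) or HCC1937+BRCA1 COH29 replicate 2 (0.115), when arrays were set to one median (0.065) and without moderation (0.0533). STC2 was 1.19-fold lower at adjusted p = 0.0444, and this call ended without any 1 of the 8 arrays (adjusted p = 0.0538 to 0.186), with the replicate block (0.0662) and after cyclic loess (0.0613). FGF21 differed by 0.12 ± 0.09 (adjusted p = 0.381). Thus 4 were called higher and 2 lower, beside 14.2% and 17.4% of all genes (31.6% together). The arrays of the lines did not overlap in 7 of the 7 genes, nor in 60.6% of all genes. The group means compared without and with drug come from different arrays, but both tests use 1 estimate of spread from all 8. They are not independent tests, and each shares its arrays with the drug effects.

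**Figure D3:**
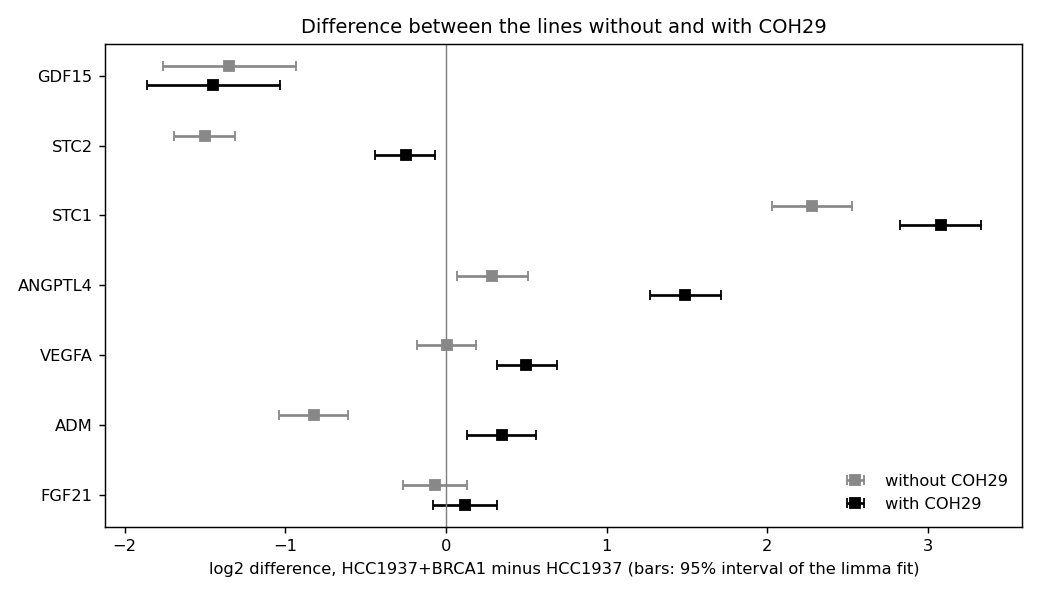
Difference between the lines (horizontal axis, log2, HCC1937+BRCA1 minus HCC1937) of each gene (vertical axis) without COH29 (grey) and with COH29 (black), with the 95% interval of the limma fit as bars. GDF15 stays near -1.35 and -1.45, STC2 goes from -1.50 to -0.25, ADM crosses from -0.82 to 0.35, and STC1 goes from 2.28 to 3.08.

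The 7 genes were compared with each other over the arrays. As a measure of likeness, each gene's mean over the 8 arrays was removed and the root mean square difference of 2 genes was taken over the arrays, in log2 units, which depends on both the pattern and the size of the changes. Over the 21 pairs it ran from 0.31 for VEGFA with ADM to 2.12 for GDF15 with STC1. GDF15 and STC2 were 0.53 apart. The stanniocalcins STC1 and STC2 were 1.92 apart, the second largest distance, since their line difference ran in opposite directions. ANGPTL4 was nearest to VEGFA (0.58).

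By the same measure the 3 nearest genes outside the set were found for each. Nearest to GDF15 were HBEGF, a secreted ligand of the EGF receptor (0.33), JMY (0.51) and TRIB3, a pseudokinase induced by stress (0.54). HBEGF was also the nearest to STC2 (0.48), followed by ASNS, asparagine synthetase (0.58), and NUPR1, a stress-induced chromatin protein (0.60). HBEGF went from 10.27 to 12.07 in HCC1937 and from 8.18 to 10.99 in HCC1937+BRCA1. STC1 lay nearest to TNFRSF10D, a decoy receptor of the death ligand TRAIL (0.31), LRAT, which esterifies retinol (0.38), and PLAGL1 (0.41), all of them higher in HCC1937+BRCA1 without drug (by 1.80, 2.86 and 1.61 on the log2 scale). The nearest to ANGPTL4 were TENT5C (0.17), DNAJB9, a co-chaperone of the endoplasmic reticulum (0.17), and MAP1LC3B, which encodes the autophagy protein LC3B (0.21). VEGFA was nearest to CSRNP2 (0.09), ANKZF1 (0.10) and BCL2L11, which encodes the death protein BIM (0.11). ADM was nearest to DUSP1, a MAP kinase phosphatase (0.11), NUPR1 (0.14) and PPP1R15A, a feedback phosphatase subunit of the stress response (0.16). For FGF21 the nearest were SLC22A23 (0.04), MIR139 (0.04) and PPP1R14C (0.05), small distances that come with its small range of 0.63. These distances are descriptions over 8 arrays that fall into 4 groups.

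Receptor genes for the secreted factors were called in both directions. Of 17 measured receptor and co-receptor genes, 3 passed higher and 2 lower in HCC1937, against 5 and 2 in HCC1937+BRCA1, with a median of 0.13 and 0.20. Beside the 22.7% and 33.6% of all genes called, these counts are not a result about the list. In HCC1937 the rises were GFRAL, FGFR1 and FGFR3 and the falls NRP1 and KL. FGFR3 was at 0.55 (limma adjusted p = 0.00396), KL at -0.49 (0.0225) and GFRAL at 0.33 (0.0239). GFRAL stood at mean percentiles 0.774 and 1.45 without and with drug, so it may not lie above background. Its call ended with one median (0.0609) and cyclic loess (0.0517). In HCC1937+BRCA1 the VEGF co-receptor gene NRP2 fell by 1.40 on the log2 scale (SE 0.09, adjusted p = 1.26e-05). In HCC1937 it was at -0.05 ± 0.09, and the difference of effects passed (-1.35 ± 0.13, adjusted p = 0.00401, and 0.106 without moderation). NRP1, the other neuropilin, fell by 0.51 in HCC1937 (adjusted p = 0.0115, but 0.0723 without COH29 replicate 1 and 0.0796 without control replicate 2 of that line) and by 0.70 in HCC1937+BRCA1 (adjusted p = 0.00152). FGFR1, a receptor that FGF21 uses together with KLB, rose by 0.59 and 0.83 (adjusted p = 0.00514 and 0.000512). Its call in HCC1937 ended without moderation (0.0517). KLB was at 0.09 ± 0.13 and 0.27 ± 0.13 (adjusted p = 0.658 and 0.148). The main VEGFA receptor KDR was at 0.13 ± 0.12 and 0.14 ± 0.12, and CALCRL, the receptor of adrenomedullin, at -0.02 ± 0.10 in both lines. CALCRL stood at mean percentiles 1.73 to 2.36 of all genes by group, KDR at 14.9 to 15.6 and KLB at 10.3 to 12.2. Whether they lie above background is not known. The co-receptor genes RAMP2 and RAMP3 were called higher in HCC1937+BRCA1, by 0.25 and 0.39 (limma adjusted p = 0.0333 and 0.0147). Neither was called in HCC1937, nor in HCC1937+BRCA1 with arrays set to one median (0.235 and 0.0616). RAMP1 was called in neither line. The 2 falls in HCC1937 became 0 without COH29 replicate 1 of that line and 1 without COH29 replicate 2 or either control array. The 5 rises in HCC1937+BRCA1 became 2 without either of its control arrays, and 3 with one median for all arrays.

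Relatives of the secreted factors were also called in both directions. Of 23 measured related ligand genes, 2 were called higher and 3 lower in HCC1937, against 3 and 3 in HCC1937+BRCA1, with a median of 0.08 and 0.16. The share called lies near or below the 22.7% and 33.6% of all genes. VEGFC, the growth factor of lymphatic vessels, fell by 0.80 in HCC1937 and by 0.69 in HCC1937+BRCA1 (SE 0.10, adjusted p = 0.000799 and 0.00098), opposite to VEGFA. PGF, another VEGF family ligand, rose by 0.77 ± 0.12 in HCC1937+BRCA1 (adjusted p = 0.00117). Its smaller rise in HCC1937, 0.40 ± 0.12, was called too (limma adjusted p = 0.042). That call in HCC1937 ended with one median (0.0547), with the replicate block (0.0535) and without moderation (0.149). The PGF difference of rises, 0.37 ± 0.17, was not called (limma adjusted p = 0.4). TGFB2 fell by 1.60 and 1.46 (adjusted p = 3.07e-05 and 1.57e-05), while GDF15, its distant relative, rose. ADM2, the paralog of ADM, rose by 0.80 ± 0.19 in HCC1937+BRCA1 (adjusted p = 0.0105), a call that ended when COH29 replicate 2 (0.079) or control replicate 1 (0.0782) was left out. The 2 rises in HCC1937 became 0 without control replicate 1 and 1 without any other array of that line. The 3 rises in HCC1937+BRCA1 became 1 without COH29 replicate 2 or control replicate 1.

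Of 15 measured genes for processing and handling of the factors, 0 were called higher and 2 lower in HCC1937 (limma, 0 and 3 at an unadjusted p under 0.05), against 1 and 2 in HCC1937+BRCA1, with medians of -0.01 and -0.10. At an unadjusted p under 0.05, 4 were higher and 4 lower in HCC1937+BRCA1. Of all genes 22.7% and 33.6% were called, and no difference between the list and all genes was tested. FURIN, a protease that cleaves proproteins including that of GDF15, fell by 0.46 in HCC1937 (SE 0.08, adjusted p = 0.00298). In HCC1937+BRCA1 FURIN was called at -0.27 ± 0.08 (adjusted p = 0.0246), which ended without any 1 of that line's 4 arrays (0.0639 to 0.0972). PAM, which amidates adrenomedullin, was at 0.02 ± 0.08 in both lines. LPL, the lipase that ANGPTL4 inhibits, was called higher in HCC1937+BRCA1 by 0.27 ± 0.09 (adjusted p = 0.0481), a call that ended without any 1 of the 8 arrays (0.053 to 0.192). LMF1, a lipase maturation factor gene, was called lower there by 0.28 (adjusted p = 0.0425), which ended without any array of that line (0.0804 to 0.169) or either HCC1937 control (0.0685). PCSK7 was called lower in HCC1937 by 0.32 (adjusted p = 0.0375), which ended without any control array of either line or COH29 replicate 1 of HCC1937 (0.0532 to 0.239).

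Of 27 genes for transcription factors and regulators known for these targets, 14 were called higher and 3 lower in HCC1937, against 16 and 4 in HCC1937+BRCA1, with a median of 0.29 and 0.55. Of all genes 10.2% were called higher and 12.5% lower in HCC1937, and 13.6% and 20.1% in HCC1937+BRCA1. DDIT3 rose by 2.47 and 3.40, NUPR1 by 1.23 and 2.42, TRIB3, an inhibitor of ATF4 and CHOP, by 1.26 and 2.09, and JUN by 1.06 and 2.02, all on the log2 scale. ATF4 rose by 0.55 ± 0.10 (adjusted p = 0.00358) and by 0.95 ± 0.10 (adjusted p = 0.000119). HIF1A, the oxygen-sensitive factor subunit, read -0.07 ± 0.09 with COH29 in HCC1937 (adjusted p = 0.623), and in HCC1937+BRCA1 it fell by 0.42 (adjusted p = 0.00754, but 0.0539 without COH29 replicate 2 and 0.0645 without control replicate 1). EGLN3, an oxygen-sensing prolyl hydroxylase and HIF target, rose by 0.90 ± 0.16 and 1.49 ± 0.16 (adjusted p = 0.00441 and 0.000171). Its call in HCC1937 ended without moderation (0.072). EPAS1 was at 0.41 and 0.09 (adjusted p = 0.00639 and 0.417), and EGLN1 at 0.38 and 0.37 (0.0137 and 0.00945). The EPAS1 call and both EGLN1 calls ended in some fits with an array left out. ARNT, HIF3A and VHL were called in neither line. HIF protein was not measured. The difference of effects was called higher for 6 of the 27 and lower for 0 (limma, 13 and 3 at an unadjusted p under 0.05), beside 0.543% and 0.413% of all genes. These were DDIT3, NUPR1, TRIB3, EGR1, JUN and FOS, of which EGR1 and FOS read 0.11 ± 0.16 and 0.16 ± 0.16 in HCC1937 and rose by 1.38 and 1.87 in HCC1937+BRCA1. The 6 became 3 without HCC1937 COH29 replicate 1 or HCC1937+BRCA1 control replicate 2, 2 without HCC1937 control replicate 2, and 1 without HCC1937 control replicate 1, HCC1937+BRCA1 control replicate 1 or either HCC1937+BRCA1 COH29 array. They became 0 without moderation.

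**Figure D4:**
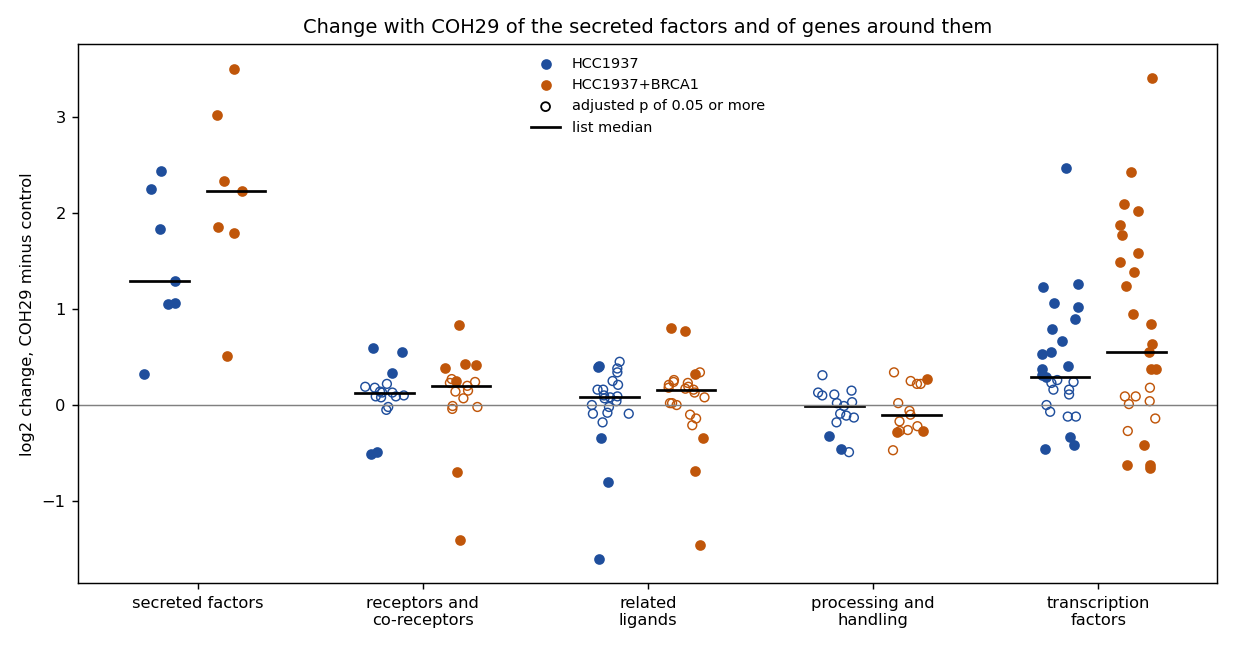
Change with COH29 (vertical axis, log2, COH29 minus control) of the 7 secreted factor genes and of 4 lists of genes around them (horizontal axis), with HCC1937 in blue and HCC1937+BRCA1 in orange; a point is 1 gene, open where the adjusted p was 0.05 or more, and a black line is the list median. The medians of receptors, related ligands and processing genes lie between -0.10 and 0.20, and those of the transcription factors at 0.29 (HCC1937) and 0.55 (HCC1937+BRCA1). The secreted factors, with medians of 1.29 and 2.23, were brought together with such results known.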

How the data were processed

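Gene expression was measured on 8 Affymetrix arrays, 2 for each line with and without COH29. RNA was extracted with TRIzol and labelled with biotin, per the labels' protocols. The table deposited by the authors holds log2 intensity for 33297 probe sets, and the submitters' processing notes name RMA and Partek with no version. RMA makes the arrays' distributions more alike, so a shift of most genes one way could be hidden. The array medians still differed as deposited. Setting them to one median moved the median COH29 change over all genes in HCC1937+BRCA1 from 0.0398 to -0.0426 (log2). The genome build, scanner files and scan batches were not used here. Gene names came from the annotation of the platform; 19460 probe sets with 1 gene were kept, the one with the highest mean over the 8 arrays per gene, which left 18417 genes.

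A group-means model of all 8 arrays was fitted with limma 3.58.1 (lmFit and eBayes; R 4.3.3) with 4 residual degrees of freedom, and p-values were adjusted by Benjamini-Hochberg over all genes. Intervals are 95% intervals of that fit. The number of arrays limits the precision (median SE of a log2 change 0.103). The fit was tested on simulated data. The genes and lists were chosen with earlier results of these data known. The 7 genes were named, with up to 4 called genes per list and comparison with the smallest p (fewer where length asked, and none for the lists between the lines), the 3 nearest genes to each, and BRCA1. Other list genes (GFRAL, KLB, KDR, CALCRL, RAMP1, RAMP2, RAMP3, PAM, ATF4, HIF1A, EPAS1, ARNT, HIF3A, VHL, EGLN1, EGLN3, EGR1) were named after their values were seen. Promoter sequences are RefSeq's (GRCh38.p14). Alternatives were a filter below the 30th percentile, one median, cyclic loess, trend and robust eBayes, no moderation, the replicate block, mean probe sets, only the 4 arrays compared and each array left out. Python 3.11.15 was used for tables and figures.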

Additional observations from a re-analysis of the deposited data

Results flagged for a closer look

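STC2, ANGPTL4 and ADM are listed here because their rise with COH29 differed between the lines by the limma test of the difference. The rise in HCC1937+BRCA1 exceeded that in HCC1937 by 1.25 for STC2, by 1.20 for ANGPTL4 and by 1.17 for ADM on the log2 scale, which is 2.38-fold, 2.29-fold and 2.25-fold. In each gene both treated HCC1937+BRCA1 arrays moved further from their controls than the treated HCC1937 arrays did. For STC2 and ADM the HCC1937+BRCA1 controls started lower than those of HCC1937, and for ANGPTL4 the control means were 0.29 apart.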

How the results depend on the processing

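No value of the 7 genes that passed the threshold changed direction under the 17 alternatives. Some of these could not move the log2 change with COH29 in a line. Each of the 7 genes had only 1 probe set, and an array of the other line enters only through the shared spread. In each line the rises of the 6 genes other than FGF21 passed in all 17. The rise of FGF21 passed in 8 of 16 in HCC1937 and in 16 of 16 in HCC1937+BRCA1. Over the 7 genes and their 5 comparisons 536 values kept direction and side of the threshold, 36 lost the call and 5 gained it. The difference of rises was called higher for 3 genes, for 5 with dim genes left out or with trend and robust eBayes (STC1 and VEGFA added), for 4 with the crossed block (STC1 added), and for 0 without moderation. The 4 higher with drug became 3 in the settings that ended the ADM call. The count higher in HCC1937+BRCA1 without drug, 2, was 1 with arrays shifted to one median, without moderation, and with the replicate block (numbers as given, or crossed between the lines, a choice made after seeing the data), and ran from 1 to 2 with an array left out. The count lower with drug, 2, was 1 after cyclic loess, with the replicate block and with only the 4 arrays compared, and also without any single array. The block with numbers as given moved no other count of the 7 genes. Same-numbered arrays of different groups correlated between -0.204 and 0.260 in their deviations, so the numbers were not taken as pairs. Values that turned sign were all uncalled: the GDF15 difference of rises (-0.10) at 0.23 without HCC1937+BRCA1 control replicate 2 (from -0.43 to 0.23 over the arrays left out), the VEGFA line difference without drug (0.01) at -0.01 with one median or cyclic loess and between -0.05 and 0.06 over all alternatives (-0.03 without HCC1937 control replicate 2), and that of FGF21 (-0.07) at 0.01 without HCC1937+BRCA1 control replicate 1 (from -0.15 to 0.01). The cause was not tested. FGF21 fell below the filter on dim genes and has no value in that setting.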
